A study of Mus musculus with 12 samples.

Results

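Eomes, Pax6 and Calb2 are 3 genes of glutamatergic cell lineages of the cerebellum, out of 8252 genes that were named singly on the array. They were taken by name, with all of their probe sets, which gave 4 in all (2 for Eomes, 1 each for Pax6 and Calb2). The genes were chosen by their lineage and by the measured genotype difference of Eomes, which was higher in Ts1Cje at each stage, so genotype values of these genes are described here without a test, and tests are given for differences between stages. The arrays measured cerebellar RNA of euploid mice and of Ts1Cje mice, a Down syndrome model with 3 copies of a segment of chromosome 16. Both genotypes were sampled at P0, P15 and P30 (0, 15 and 30 days after birth), with 1 pool of RNA for each genotype and stage. Each pool was made from 3 cerebella, or from 2 for euploid P30, and was run on 2 arrays, so the 12 arrays stand for 6 pools. None of the 3 genes lies on chromosome 16. In whole tissue, fewer cells of a type and less RNA per cell cannot be told apart.

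The rhombic lip is a germinal zone at the edge of the embryonic cerebellum that gives rise to its glutamatergic neurons, among them granule cells, unipolar brush cells and neurons of the deep nuclei. Pax6, a paired-box and homeobox transcription factor, is present in granule cell progenitors and in the granule cells that form from them. Eomes, also called Tbr2, is a T-box transcription factor that marks unipolar brush cells, excitatory interneurons of the granular layer. Calb2 encodes calretinin, a calcium-binding protein with EF hands that is found in granule cells and in a subtype of unipolar brush cells.

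The windows around the transcription start show the sequence next to the genes for both transcription factors. Whether these genes share regulation was not tested. The windows are from RefSeq (GRCm38.p6), where 2 of the 3 genes matched an entry, and run from 250 bases before to 50 bases after a start. The Eomes window is chr9:118477939-118478238 and the Pax6 window, the first of its 2 entries, is chr2:105668646-105668945, both on the plus strand. Capitals mark matches to the motifs named after them.
Eomes: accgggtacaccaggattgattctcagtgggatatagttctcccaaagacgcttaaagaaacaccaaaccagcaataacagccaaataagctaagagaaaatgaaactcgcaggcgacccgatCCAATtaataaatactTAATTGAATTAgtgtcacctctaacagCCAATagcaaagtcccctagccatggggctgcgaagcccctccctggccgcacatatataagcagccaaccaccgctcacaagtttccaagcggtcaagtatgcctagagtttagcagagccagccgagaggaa
Pax6: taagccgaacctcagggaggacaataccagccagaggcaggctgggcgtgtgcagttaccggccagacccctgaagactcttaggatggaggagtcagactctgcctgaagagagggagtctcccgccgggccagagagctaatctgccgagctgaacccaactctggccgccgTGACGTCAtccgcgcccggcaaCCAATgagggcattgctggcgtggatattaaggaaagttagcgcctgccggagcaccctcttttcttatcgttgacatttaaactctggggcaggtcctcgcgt

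Searched on both strands were the TATA box (TATAAA), the CCAAT box, an E-box of proneural factors (CAGATG), a T-box half-site (GGTGTGA), the cyclic AMP response element (TGACGTCA), and the homeodomain palindromes, in which TAAT and its reverse complement are 2 or 3 bases apart. No match overlapped one of another motif in these windows. The Eomes window held CCAAT from base -127 to -123 and from -84 to -80, and TAATTGAATTA, a palindrome with 3 bases between, from -111 to -101. The Pax6 window held CCAAT from -54 to -50 and TGACGTCA from -76 to -69. Of 32851 windows of the same length, 37.4% held the CCAAT box, 0.487% the palindrome with 3 bases between and 1.79% the cyclic AMP response element. The other shares were 13.6% for the TATA box, 17.2% for the E-box, 3.98% for the T-box half-site and 0.39% for the palindrome with 2 bases between. None of these had a match in either window. Only the exact letters given were searched, so variant forms, such as the tatataag of the Eomes window, were not counted. The second Pax6 entry, chr2:105682213-105682512, held none of the motifs. A match describes letters and not a bound site.

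The deposited signals were on a common scale, with a median signal of 30.4 to 36.2 per array. The span between Sod1 and Mx1 on chromosome 16 was taken to mark the triplicated segment. Of its 33 genes on the array, 22 were bright enough to test, and all 22 had a positive genotype difference with a median of 0.48 (log2). The Ts1Cje P15 pool stood apart from the rest. Xist, an RNA of the inactive X chromosome, had signals of 105.6 and 77.6 there and of 1.4 to 6.7 on the other 10 arrays. Dlx1, a homeobox gene of forebrain GABAergic neurons, had 77.5 and 64.9 there and 0.5 to 5 on the other arrays. At P0, some brainstem genes separated the arrays of both genotypes, in both directions. Of 10 midbrain and brainstem markers on the array, 4 Hox genes were lower on both Ts1Cje arrays, among them Hoxa5 at 30.4 and 32.3 against 263.6 and 239.8 in the euploid pool. Another 3 were higher (Gata3, Th and Slc6a4). Over 7453 tested probe sets, 22.4% were higher on both Ts1Cje arrays at P0, and the share that was lower was not computed. These counts therefore do not set the brainstem list apart from all probe sets. The rises to P15 and the genotype differences over the stages are given with and without the Ts1Cje P15 and euploid P0 pools.

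All 4 probe sets passed the signal filter, which kept 7453 probe sets with a mean signal of at least 20.1. The means were 909.8 for Calb2, 134.8 for Pax6, 49.6 for the brighter and 23.1 for the dimmer probe set of Eomes. In the dimmer one, 6 of 12 arrays lay under that limit, among them all 4 of P0, so it passed only through its later arrays. The values of the dimmer one are described here without a test. In the brighter one, both euploid P0 arrays (12.4 and 7.0) lay under the limit and both Ts1Cje P0 arrays (33.5 and 24.7) above it. Differences are on the scale log2(signal + 4.6), which understates changes of dim probe sets such as those of Eomes. A difference was called at a limma adjusted p under 0.05 (Benjamini-Hochberg over the 7453 probe sets), with the pool as replicate.

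All 3 genes rose between P0 and P15, and none was called from P15 to P30. At P30, Calb2 and Eomes were still above P0, and for Pax6 that difference was not called. Over all 7453 probe sets, 1014 (13.6%) were called higher at P15 than at P0 and 1074 (14.4%) lower. From P15 to P30, 120 (1.61%) were called higher and 233 (3.13%) lower, and from P0 to P30, 1446 (19.4%) higher and 1458 (19.6%) lower. The brightest probe set of each of the 3 genes was among those called higher at P15.

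**Figure D1:**
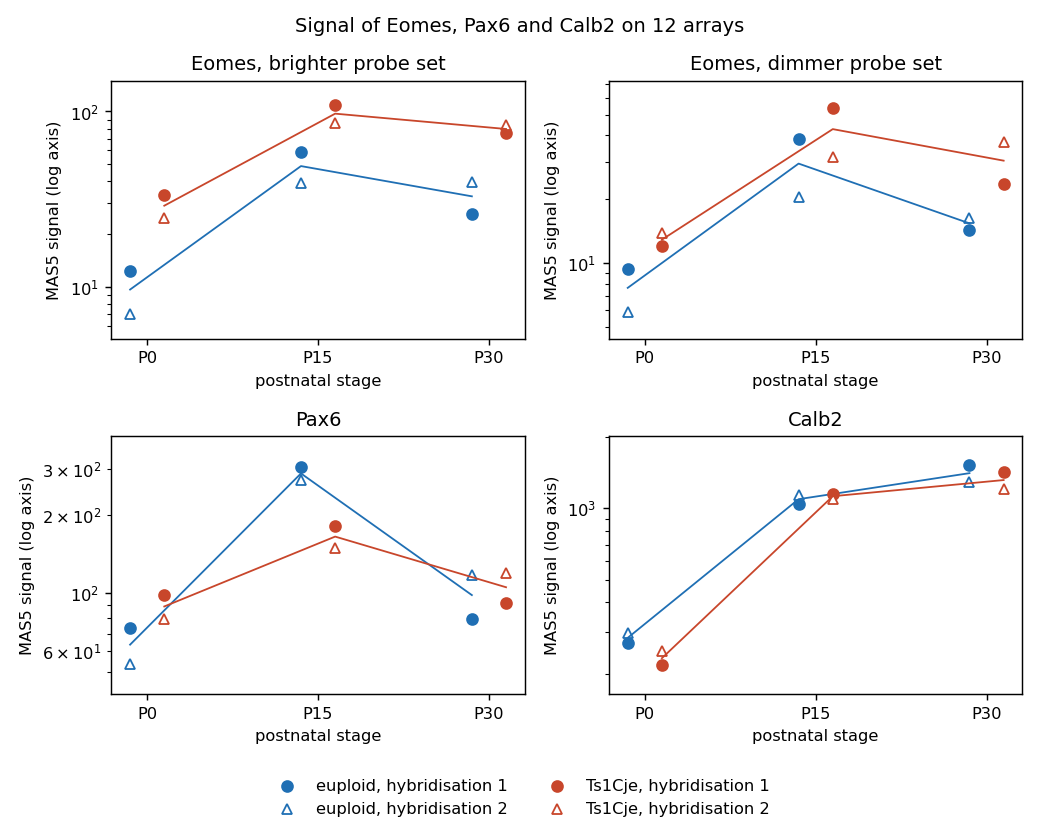
MAS5 signal (log axis) of the 4 probe sets on each of the 12 arrays by postnatal stage, with euploid in blue and Ts1Cje in red, circles and triangles for both hybridisations of a pool, and lines through pool means. Eomes (brighter probe set) lies higher in Ts1Cje at each stage, Pax6 is highest in the euploid P15 pool at 304.9 and 270.9, and Calb2 rises to above 1000 at P15 in both genotypes.

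Pax6, the earliest of the 3 in the lineage, had its highest signals at P15. In euploid cerebellum its signals were 73.3 and 53.6 at P0, 304.9 and 270.9 at P15, and 79.5 and 117.1 at P30. In Ts1Cje cerebellum they were 98.1 and 79.7 at P0, 180.4 and 149.2 at P15, and 91.3 and 119.4 at P30. Within each genotype both P15 arrays lay above all arrays of the other stages. Over both genotypes Pax6 rose from P0 to P15 by 1.49 ± 0.27 (log2 difference ± SE, 6 pools, limma adjusted p = 0.00443), or 2.80-fold. The difference from P15 to P30 was -1.08 ± 0.27 and was not called (limma adjusted p = 0.0648). That from P0 to P30 was 0.41 ± 0.27 (limma adjusted p = 0.269).

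The size of the P15 maximum of Pax6 differed between the pools. In euploid pools the log2 value went up by 2.12 from P0 to P15 and changed by -1.53 to P30. In Ts1Cje pools these steps were 0.86 and -0.63. Without the Ts1Cje P15 pool, the rise to P15 was 2.03 (limma adjusted p = 4.01e-05) and the difference to P30 was -1.62, which was then called (limma adjusted p = 0.002). Without the euploid P15 pool, they were 0.95 (limma adjusted p = 0.0104) and -0.54 (limma adjusted p = 0.246). Without the euploid P0 pool the rise was 1.08 (limma adjusted p = 0.0307). The step from P15 to P30 was also called without the euploid P0 pool (limma adjusted p = 0.0263), the Ts1Cje P0 pool (0.0277) or the Ts1Cje P30 pool (0.034), as with the first hybridisation alone (-1.41, 0.0172). Of all 7453 probe sets, 35 were called both higher at P15 than at P0 and lower at P30 than at P15 (0.47%), and Pax6 missed the second of these calls.

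Eomes rose from low signals at P0. Its brighter probe set had 12.4 and 7.0 in the euploid P0 pool, 58.6 and 39.2 at P15, and 26.0 and 39.8 at P30. In the Ts1Cje pools it had 33.5 and 24.7 at P0, 108.3 and 86.1 at P15, and 75.5 and 83.5 at P30. Both P0 arrays lay below all later arrays in each genotype. The rise from P0 to P15 was 1.75 ± 0.20 (log2 difference ± SE, 6 pools, limma adjusted p = 0.000439), or 3.37-fold. P30 remained above P0 by 1.36 ± 0.20 (limma adjusted p = 0.000898). This probe set passed the signal filter largely through its later arrays, which limits both calls. Without the filter the limma adjusted p was 0.00157 for the rise to P15 and 0.00287 for P30 against P0. The difference from P15 to P30, -0.39 ± 0.20, was not called (limma adjusted p = 0.289). The rise to P15 was 1.89 without the Ts1Cje P15 pool (limma adjusted p = 0.000541) and 1.66 without the euploid P0 pool (limma adjusted p = 0.00262). Euploid arrays of P15 and P30 overlapped for this probe set, while both Ts1Cje arrays of P30 lay below those of P15.

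The dimmer Eomes probe set gave the same order of stages at lower signals. In the euploid pools it had 9.4 and 5.9 at P0, 38.5 and 20.4 at P15, and 14.4 and 16.4 at P30. In the Ts1Cje pools it had 12 and 13.8 at P0, 53.8 and 31.8 at P15, and 23.7 and 37.1 at P30. The differences over both genotypes were 1.42 ± 0.24 from P0 to P15, -0.57 ± 0.24 from P15 to P30 and 0.85 ± 0.24 from P0 to P30 (log2 ± SE, 6 pools). The first was 1.5 without the Ts1Cje P15 pool and 1.47 without the euploid P0 pool. Hybridisations of a pool differed by an SD of 0.37 on the log2 scale here, against 0.31 in the brighter probe set, 0.25 for Pax6 and 0.12 for Calb2.

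Calb2 was bright and, like Eomes and Pax6, rose between P0 and P15. Its signals in euploid cerebellum were 269.8 and 297.3 at P0, 1046.1 and 1139.9 at P15, and 1521.2 and 1294.6 at P30. In Ts1Cje cerebellum they were 216.7 and 248.5 at P0, 1154.0 and 1095.9 at P15, and 1424.4 and 1208.7 at P30. All P30 arrays lay above the P15 arrays of their genotype, and all P15 arrays far above those of P0. Calb2 rose from P0 to P15 by 2.09 ± 0.14 (log2 difference ± SE, 6 pools, limma adjusted p = 3.29e-05), or 4.26-fold. It was 1.98 without the Ts1Cje P15 pool (limma adjusted p = 6.42e-06) and 2.22 without the euploid P0 pool (limma adjusted p = 0.000139). P30 exceeded P0 by 2.38 ± 0.14 (limma adjusted p = 8.21e-06), or 5.22-fold. The further difference from P15 to P30 of 0.29 ± 0.14 was not called (limma adjusted p = 0.265).

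**Figure D2:**
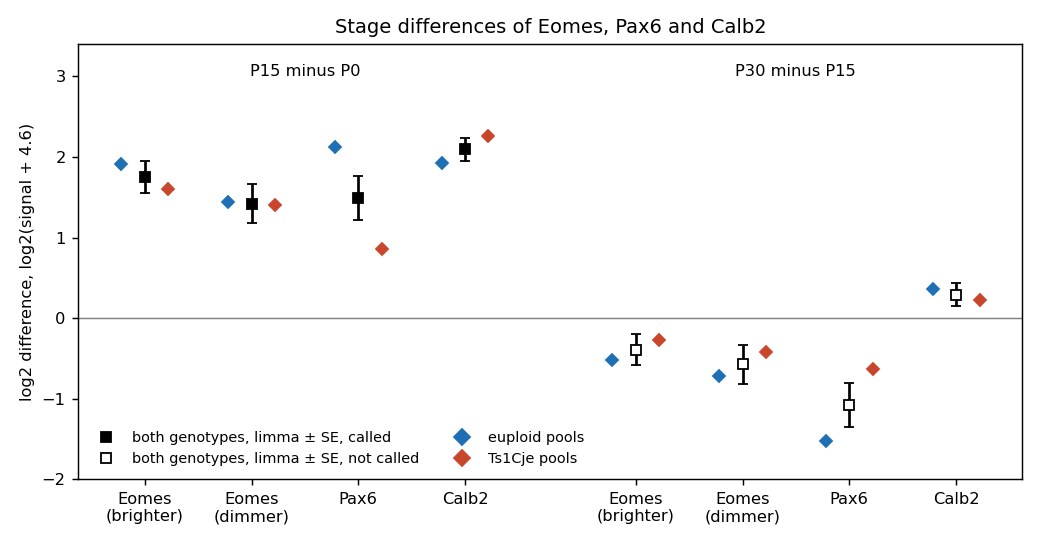
Log2 differences between stages for the 4 probe sets, as limma estimates over both genotypes with their SE (black squares, filled where called) and as the differences of single pools within euploid (blue) and Ts1Cje (red). All 4 estimates for P15 against P0 are positive and filled, and those for P30 against P15 are open. The dimmer Eomes probe set is drawn by the same rule, but no test is read for it here. Pax6 has the widest gap between genotypes, 2.12 against 0.86.

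Between genotypes, Eomes was higher in Ts1Cje at each stage, which is why the gene was chosen. For the brighter probe set both Ts1Cje arrays lay above both euploid arrays at P0, P15 and P30, by 1.25, 0.94 and 1.19 on the log2 scale, or 2.38-, 1.92- and 2.28-fold. Such a separation at all 3 stages was found for 69 of 7453 probe sets (0.926%). The difference over the stages was 1.13 ± 0.16 (log2 ± SE, 6 pools). The dimmer probe set differed by 0.53, 0.49 and 0.78, or 0.60 ± 0.20 over the stages, and its arrays overlapped between genotypes at P15. Without the Ts1Cje P15 pool it was 0.65, and without the euploid P0 pool 0.64. Limma called 0 of 7453 probe sets for genotype (0%), with 217 at an unadjusted p under 0.05.

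For the brighter probe set the difference was 1.22 without the Ts1Cje P15 pool and 1.07 without either P0 pool, where the direction follows from the choice of the gene. Forebrain markers on the array (5 of 9 listed: Neurod6, Dlx1, Dlx2, Dlx5 and Lhx6) summed to 104.4 and 110.0 in the Ts1Cje P15 pool and to 9.6 to 49.4 on the other 10 arrays. Dlx1 carried most of this sum, and without it the other 4 summed to 32.5 and 39.5 there against 8.8 to 44.4. The top of that range was a euploid P0 array, and the euploid P15 arrays had 22.1 and 8.8. Dlx2 and Dlx5 were also higher on both Ts1Cje P15 arrays than on the euploid P15 arrays, while Neurod6 and Lhx6 overlapped. None of the 5 forebrain markers passed the signal filter. Cytotoxic lymphocytes also use Eomes, and of 15 of their markers 13 were on the array and 0 passed the filter. Their single signals were 0 to 28.2, the highest that of Il2rb, and their sum per array was 28.6 to 64.2 in euploid and 35.7 to 92.6 in Ts1Cje pools. Both Ts1Cje arrays lay above both euploid arrays for 4 of the 13 in the P0 pools, 0 in those of P15 and 2 in those of P30, and below for 0, 2 and 1. Over the 7453 tested probe sets, 22.4% lay above at P0 and 18.5% below at P15. The shares for the other counts were not computed. None of the 13 markers is among the tested probe sets. The counts are thus description only and are not read against those shares. Prf1, perforin, was among the higher of the 13 lymphocyte markers at P0 and P30, with 1.2 to 4.4 on euploid and 1.4 to 16.4 on Ts1Cje arrays. Midbrain and brainstem markers (10 on the array of 16) summed to 818.2 to 856.5 in the euploid P0 pool and to 510.9 to 511.4 in the Ts1Cje P0 pool. Without Hoxa5 and Hoxb5, the other 8 had sums of 411.1 and 421.0 in the euploid P0 pool and of 446.3 and 456.2 in the Ts1Cje P0 pool. The part of these markers in the Eomes difference was not tested.

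Pax6 differed in opposite directions at P0 and P15. Both Ts1Cje arrays lay above both euploid arrays at P0, by 0.47 (1.38-fold), and below them at P15, by -0.79, which is 1.73-fold lower. At P30 the arrays overlapped and the difference was 0.11. Of the 7453 probe sets, 22.4% had both Ts1Cje arrays above at P0 and 18.5% had both below at P15. Over all stages the difference was -0.07 ± 0.22. Without the Ts1Cje P15 pool it was 0.29, and without the euploid P0 pool -0.34, so its sign depended on single pools. Of 16 rhombic lip and granule progenitor genes on the array, 7 were higher on both Ts1Cje arrays at P0 and 2 lower. At P15, 3 of them were higher and 6 lower. Zic2, Neurod1, Mycn and Unc5c were, like Pax6, higher at P0 and lower at P15, and Nhlh1 was the reverse. Of mature granule cell markers (6 of 11 on the array), 3 were lower on both Ts1Cje arrays at P15 (Gabra6, Grin2c and Gabrd) and 3 overlapped. Their summed signal was 5035.3 to 5521.9 in the Ts1Cje pool against 6396.0 to 6524.0 in the euploid pool. Of Purkinje cell markers (8 of 10 on the array), 4 were lower at that stage (Calb1, Pcp2, Car8 and Rora), 1 higher and 3 overlapped, with sums of 6674.8 to 7228.3 against 8621.5 to 8646.1. The part of these markers and of Dlx1 in the Pax6 difference was not tested.

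For Calb2, the Ts1Cje arrays lay below the euploid arrays at P0 by -0.28, and the arrays overlapped at P15 (0.04) and P30 (-0.10). The difference over the stages was -0.11 ± 0.11. It was -0.03 without either P0 pool and -0.19 without either P15 pool.

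**Figure D3:**
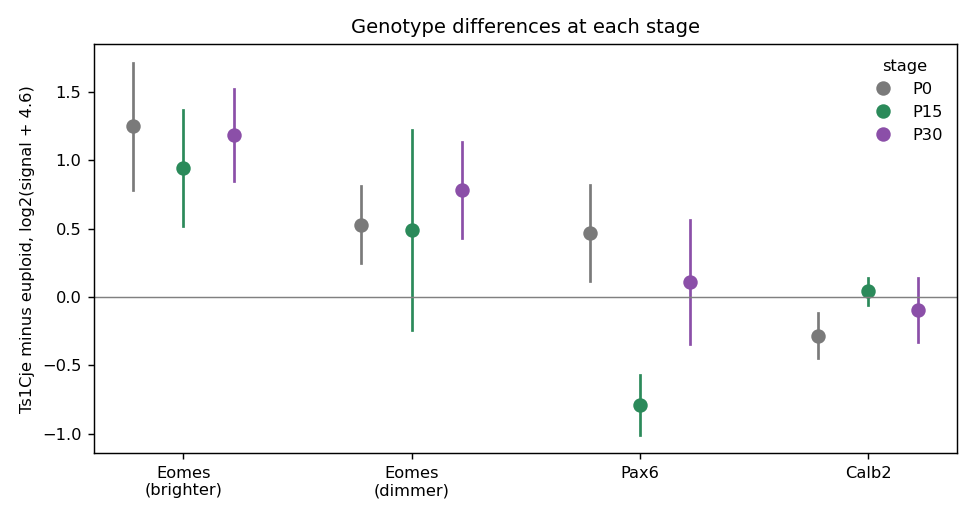
Ts1Cje minus euploid on the log2(signal + 4.6) scale for each probe set at P0 (grey), P15 (green) and P30 (purple), where a point is the difference of pool means and a bar spans the 4 differences between single arrays. Eomes (brighter) is above 0 at each stage (1.25, 0.94 and 1.19), Pax6 is above 0 at P0 and below 0 at P15, and Calb2 is near 0 at P15 and P30.

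Genes listed for the same lineages were then set beside the 3. Listed genes with signals under the filter limit at 1 stage passed it through other stages, which limits their calls. Of 9 further unipolar brush cell markers, 2 were on the array and tested. Scg2, a secretogranin of dense-core vesicles, fell from P0 to P15 by 0.95 ± 0.17 (limma adjusted p = 0.0045), and the phospholipase Plcb1 had a difference of 0.34 ± 0.15 (limma adjusted p = 0.125). Their genotype differences were 0.09 and 0.02. Both genes are also active in other neurons, so the identity of the Eomes-bearing cells could not be checked with markers of that cell type alone. Of the 5 T-box genes on the array besides Eomes, 2 were tested (Tbx2 and Tbx6) and neither was called from P0 to P15. Tbr1, its closest relative in the brain and a marker of deep nuclei, lay under the filter with 1.4 to 23.7 on the 12 arrays. Of 7 further Pax genes on the array, 2 were tested (Pax3 and Pax4), and neither was called.

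For rhombic lip and granule progenitor genes, more were called higher than lower at P15. Of 21 listed, 16 were on the array and 11 tested, of which 6 were called higher and 1 lower from P0 to P15. The median was 0.86 against -0.03 over all probe sets, of which 13.6% were called higher and 14.4% lower. Neurod1, a factor of granule cell differentiation, rose by 3.53 ± 0.30 (limma adjusted p = 0.000106), Zic2, a zinc finger factor of progenitors, by 1.76 ± 0.31 and Neurod2, of the same family as Neurod1, by 1.70 ± 0.18. Unc5c, a netrin receptor of migrating granule cells, rose by 1.37 ± 0.23. Sfrp1, a secreted Wnt antagonist, was the 1 called lower at -0.77 ± 0.23. From P15 to P30, 2 were called, both lower: Nhlh1, a factor of newly formed neurons, at -1.91 ± 0.29 (limma adjusted p = 0.0129) and Mycn, which drives progenitor division, at -1.40 ± 0.22 (limma adjusted p = 0.0142). Atoh1, the factor that defines rhombic lip progenitors, had signals of 1 to 6.1 on all arrays and was not tested.

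Genes of the neurogenic sequence known from the cortex, in which Pax6, Eomes and Tbr1 follow each other, split by direction. Of 14 listed, 13 were on the array and 9 tested, with 5 called higher and 3 lower from P0 to P15. The shares over all probe sets were 13.6% and 14.4%. Besides Neurod1 and Neurod2, the higher ones were Gadd45g (1.22 ± 0.21), Insm1, a zinc finger factor of neuronal progenitors (1.06 ± 0.27), and Btg2, an antiproliferative gene (0.76 ± 0.17). The lower ones were Dll1, a Notch ligand (-1.75 ± 0.31), Hes5, a Notch target (-1.64 ± 0.32), and Sox11, a factor of immature neurons (-1.26 ± 0.16). From P15 to P30, 2 were called, both lower, Sox11 at -3.97 ± 0.16 and Insm1 at -3.14 ± 0.27. Insm1 thus had calls in both directions around P15. Its signals were 104.9 and 92.9 in the euploid P15 pool and 100.6 and 60.8 in the Ts1Cje P15 pool. Of genes of the glutamatergic nuclei, 4 of 7 were on the array and 2 tested, and both fell to P15. The difference was -2.94 ± 0.45 for Meis2 and -1.56 ± 0.19 for Irx3, both homeobox genes.

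Calcium-binding proteins of neurons other than Calb2 moved in both directions. Of 18 listed, 11 were on the array and 9 tested, with 4 called higher and 2 lower from P0 to P15. Over all probe sets these shares were 13.6% and 14.4%. S100b, of glia, rose by 3.91 ± 0.17, Calb1, the calbindin of Purkinje cells, by 3.68 ± 0.17, Pvalb, parvalbumin, by 2.83 ± 0.13 and Hpcal1, a neuronal calcium sensor, by 1.05 ± 0.14. Hpca and Ncs1, of the same sensor family, had differences of -0.85 ± 0.20 and -0.85 ± 0.21. From P15 to P30, 1 was called higher, S100b at 0.84 ± 0.17.

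Other cell classes give the setting. Over all 7453 probe sets, 13.6% were called higher and 14.4% lower from P0 to P15, and 1.61% and 3.13% from P15 to P30. From P0 to P15, 5 of 6 tested genes of mature granule cells, 7 of 7 of Purkinje cells and 7 of 7 of myelin and oligodendrocytes were called higher, and none lower. In the same step, 1 of 5 of the GABAergic lineage was higher (Gad1), 4 of 11 of cell division and 6 of 8 of midbrain and brainstem were lower, and none of these lists had a call the other way. Of choroid plexus and meninges, 1 of 10 was higher (Kl), and of red blood cells 1 of 3 (Alas2), with none lower. With 1 call each, the GABAergic, choroid plexus and red cell lists are too small to be set apart from the share of 13.6%. Gabra6, a GABA receptor subunit of mature granule cells, rose by 7.90 ± 0.21, Ppp1r17 of Purkinje cells by 5.49 ± 0.15 and Mobp of myelin by 7.91 ± 0.15, while Slc6a4, the serotonin transporter, had a difference of -3.17 ± 0.38. From P15 to P30 there was no call among mature granule, GABAergic, brainstem, red cell and myelin genes, 1 of 7 Purkinje genes was higher (Ppp1r17), 2 of 11 of cell division were lower (Mki67 and Cdk1), and 4 of choroid plexus and meninges were higher and 2 lower.

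The genes with the most similar course were taken by the root-mean-square distance between log2 profiles over the 6 pools, each centred on its own mean. For Calb2 they were Rnf13, a ubiquitin ligase (0.11), Rgs8, a regulator of G-protein signalling (0.12), Tuba4a, an alpha tubulin (0.12), Ank1, an ankyrin (0.12), and Cerk, ceramide kinase (0.14), where the median over 6744 candidates was 1.08. Their differences from P0 to P15 were 1.87 (Cerk) to 2.31 (Tuba4a), close to that of Calb2 as their choice sets. For Pax6 they were Zbtb20, a zinc finger factor (0.15), Nfib, a nuclear factor I protein (0.17), Gab1, an adaptor of receptor tyrosine kinases (0.20), Unc5c (0.22), and Piga, of GPI anchor synthesis (0.24), with a median of 0.75 over all candidates. Their differences were 1.23 (Piga) to 1.60 (Zbtb20) from P0 to P15 and -1.05 (Gab1) to -0.65 (Unc5c) from P15 to P30, again as their choice sets.

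For Eomes the nearest genes lay farther off. They were Mdfi, an inhibitor of MyoD family factors (0.35), C2cd2 (0.39), Slc4a4, a sodium bicarbonate cotransporter (0.41), Son, a splicing cofactor (0.43), and Klf13, a zinc finger factor (0.48), with a median of 0.97 over 6743 candidates. Son lies between Sod1 and Mx1 on chromosome 16, and C2cd2 on the same chromosome outside that span. Whether the triplicated segment reaches C2cd2 was not examined. Their genotype differences were 0.75 and 0.57. Zbtb20, the nearest to Pax6, is also on chromosome 16, outside that span, and had 0.05. The profiles hold both genotypes, so the choice of near genes also sets these genotype differences. The dimmer Eomes probe set lay at 0.35 from the brighter one, with 0% of candidates nearer. Between the 3 genes, the distance of Eomes and Pax6 was 0.75, with 9.62% of candidates nearer to Eomes and 50.2% nearer to Pax6. That of Eomes and Calb2 was 0.76, with 11.0% nearer to Eomes and 11.6% nearer to Calb2. That of Pax6 and Calb2 was 0.89, with 78.9% nearer to Pax6 and 21.6% nearer to Calb2.

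**Figure D4:**
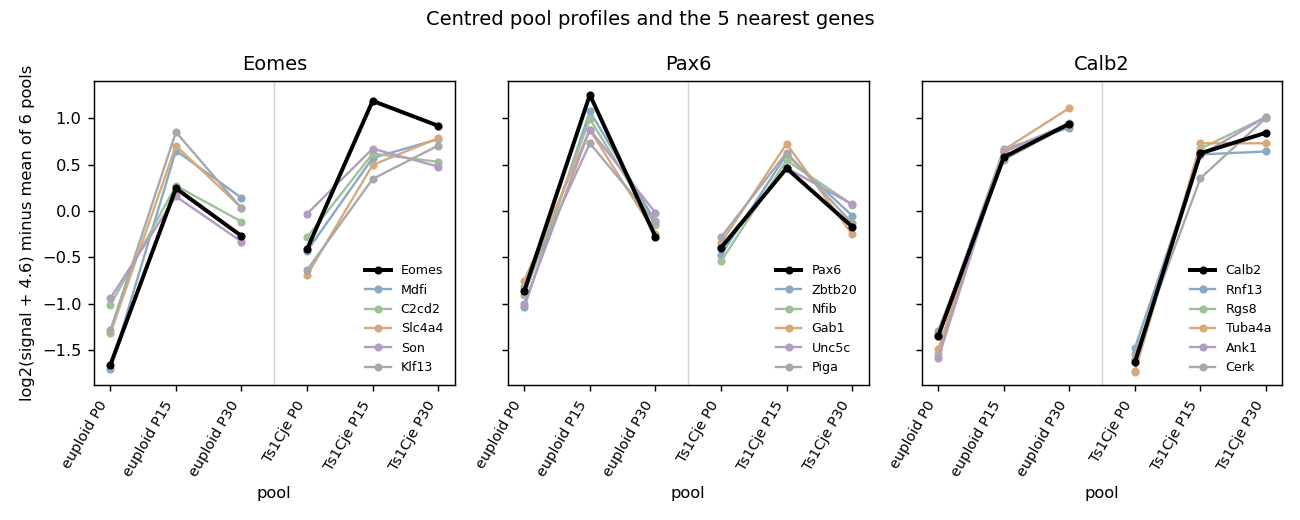
Log2(signal + 4.6) of each pool minus the mean of the 6 pools for Eomes, Pax6 and Calb2 (black) and for the 5 genes nearest to each (colours), with euploid pools left and Ts1Cje pools right of the grey line. The genes near Calb2 lie almost on its line (0.11 to 0.14), those near Pax6 share its P15 maximum, and Eomes lies above its nearest genes in the Ts1Cje P15 pool.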

How the data were processed

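The deposited values are linear signal intensities of 12488 probe sets on 12 arrays, made with MAS5 per the submitters' processing notes (version not given in the sources used here). Per the labels' protocols, RNA was extracted from single frozen cerebella, pooled, and made into biotinylated cRNA. The authors had scaled the arrays, with a 2% trimmed mean of about 100.06 on each. Detection calls were not used here. Precision is limited by the number of pools, with 1 for each genotype and stage. The scale of analysis was log2(signal + 4.6), with the 20th percentile of all values as the added constant, and both hybridisations of a pool were averaged. The 66 control probe sets and those under the 40th percentile of mean signal (20.1) were left out, leaving 7453. Symbols came from the platform annotation (10855 probe sets with 1 symbol, 396 with several, 1237 with none). Of the first, 10839 matched RefSeq.

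limma 3.58.1 (R 4.3.3; lmFit, eBayes with trend, two-sided) fitted genotype and stage to 6 pools, with 2 residual and 6.39 prior degrees of freedom. The p-values reflect only how these pools vary, since separate animals were pooled, and within 1 stage there is no test. In data simulated for P15 against P0 over 7453 probe sets, 91.8% of 2-fold and 100% of 4-fold changes were recovered, with 7.97% and 7.21% false among calls. Figures used matplotlib 3.10.9.

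The genes and lists were chosen with earlier results of these data known. A list gene is its brightest tested probe set. Named are all probe sets of the 3 genes, the 5 nearest profiles of each, and called list genes with the largest differences (up to 4 from P0 to P15, up to 2 from P15 to P30). Genes named besides these, such as Xist, Hoxa5, Atoh1 and Tbr1, were chosen after their values were seen. Motifs were chosen with the windows in view. Alternatives were the pseudocount (1 or 32), no filter, quantile normalization, no trend, either hybridisation alone, a block for the hybridisation number, each pool left out, and the probe set with the smallest p.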

Additional observations from a re-analysis of the deposited data

Results flagged for a closer look

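Pax6 had genotype differences of opposite sign at P0 and P15, with no overlap between arrays. Ts1Cje minus euploid was 0.47 at P0 and -0.79 at P15 (log2, 1 pool against 1 pool). The change between these stages was not tested. It was not particular to Pax6, since Zic2, Neurod1, Mycn and Unc5c of the rhombic lip list also changed sides in this way. Nhlh1 of that list changed sides in the reverse way. The Ts1Cje P15 pool on which the second value rests is the one with the Xist and Dlx1 signals.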

How the results depend on the processing

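Across 14 alternatives, all 126 stage differences of the brightest probe sets kept their direction and 120 also their side of the threshold. Their rises from P0 to P15 were called throughout, with a highest limma adjusted p of 0.00262 for Eomes, 0.0307 for Pax6 and 0.000396 for Calb2. The Pax6 step from P15 to P30 ranged from -1.62 to -0.54 with a pool or hybridisation left out (limma adjusted p 0.002 to 0.308), and was -1.41 with the first hybridisation alone. With the hybridisation number as a replicate block and the pool as a random term it was -1.08 and called (limma adjusted p = 0.0115). The number is no pairing in the labels. Over 15 pairs of pools, differences between hybridisations had correlations of -0.12 to 0.35 (median 0.07), 7 of them over 0.1. The Pax6 genotype difference changed sign between -0.34 and 0.29 as pools were left out. That of Eomes (brighter) fell to 0.67 at a pseudocount of 32, a larger share of its low signals, and was otherwise 1.07 to 1.27. That of the dimmer probe set, 0.60, was 0.28 at a pseudocount of 32 and 0.42 to 0.78 otherwise.

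Counts over all probe sets moved more. From P15 to P30, 75 were higher and 124 lower without the filter, 66 and 117 without the trend, and 392 and 506 with the replicate block. They were 36 to 258 and 62 to 488 with 1 hybridisation alone, and 52 to 212 and 89 to 306 with a pool left out. With either left out, those from P0 to P15 were 714 to 975 higher and 700 to 1009 lower, and from P0 to P30 900 to 1654 higher and 930 to 1639 lower. For genotype, the replicate block gave 5 higher and 1 lower, and leaving out pools or hybridisations 0 higher and 0 to 6 lower. The cause was not tested. All 60 list counts stayed within 1.5 times with the probe set of smallest p. Signals near background limit Eomes most.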
